A study of Homo sapiens with 9 samples.

Results

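The IGF-binding proteins IGFBP1 to IGFBP7, the receptor IGF1R and the receptor substrates IRS1 and IRS2 were 10 of the 58735 genes counted, and were taken by their gene names. They were measured by RNA sequencing in A549, an established human cell line from a lung adenocarcinoma, grown in RPMI 1640 medium with fetal bovine serum. The control group, PC3, was transfected with a plasmid that the study calls PC3.1, so PC3 is no cell line here. The labels write PC3.1, PC3.2 and PC3.3 for its libraries, and whether these are different plasmids or a running number is not stated. The group L996 overexpressed the long non-coding RNA LINC00996 and the group RP11 overexpressed the long non-coding RNA AP001189.3, both from transfected plasmids. Each of the 3 groups had 3 libraries, and all 9 came from cells transfected with jetPRIME. The set was chosen by its names and with the count values of IGFBP1 known, which were lower in L996 than in PC3. The values of the 10 genes in that comparison, and of IGFBP1 in every comparison, since each shares libraries with it, are therefore given as a description with no p-value.

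The IGF-binding proteins are secreted proteins that hold insulin-like growth factors outside the cell and set how much of them reaches the receptor, and IGFBP7 binds them only weakly. IGF1R is the receptor tyrosine kinase for these factors, and IRS1 and IRS2 are the adaptors that carry its signal, and that of the insulin receptor, to PI3K and AKT. Active AKT keeps FOXO transcription factors out of the nucleus, and IGFBP1 and IRS2 are textbook genes that FOXO factors switch on and insulin switches off.

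Total counts per library ran from 15272450 to 18125447. LINC00996 had 4373 to 5952 counts in the L996 libraries and 4 to 9 in the others, and AP001189.3 had 1660 to 2378 counts in the RP11 libraries and 0 to 2 in the others, as the labels say. The epithelial markers EPCAM, KRT8, KRT18, KRT19 and CDH1 were all expressed, whereas the alveolar type II genes SFTPA1, SFTPB and SFTPC had at most 6 counts in any library, although ABCA3, of the same list, reached 1829 and NAPSA 53. The leukocyte gene PTPRC had at most 1 count, while CD14 reached 251. L996 replicate 1 stood apart from the other L996 libraries, with a chi-square of 22.4 and 33.3 per gene against them, compared with 2.27 to 7.32 for the other pairs of libraries within a group. No pair agreed within sampling noise, so each library counted as 1 replicate. The study says that extractions were made in triplicate, and a general text on its analysis speaks of biological replicates, but neither says whether the libraries came from separate cultures. The p-values measure only the spread between these libraries, which may be technical. In bulk libraries, fewer cells with a transcript and less of it in each cell cannot be told apart.

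All 10 genes passed the filter on low counts in every comparison. Levels below are CPM, counts per 1000000 counts of a library, after TMM scaling, which corrects for a few genes taking a large share of a library, and levels of different genes are compared only as CPM per kilobase of gene length. In the PC3 control, IGFBP4 (978 ± 48.8 CPM per kilobase, SD, n = 3) and IGFBP3 (962 ± 65.0) came first, and they differed by less than their spread. IGFBP1, at 381 ± 8.69 CPM per kilobase, followed well apart from both its neighbours in the order. IGFBP6 (74.3 ± 5.88) and IGFBP7 (57.0 ± 5.22) came next, without overlap of their libraries. IRS2, at 25.1 ± 2.76 CPM per kilobase, and IGF1R, at 24.7 ± 0.75, did not differ beyond their spread. IRS1 stood at 16.0 ± 0.095, IGFBP2 at 10.7 ± 0.86 and IGFBP5 at 2.22 ± 0.44 CPM per kilobase. The binding proteins IGFBP3, IGFBP4 and IGFBP1 were thus the main IGFBP transcripts of these A549 cells, and the order of the 10 genes was the same in RP11, while in L996 IGF1R stood above IRS2.

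**Figure D1:**
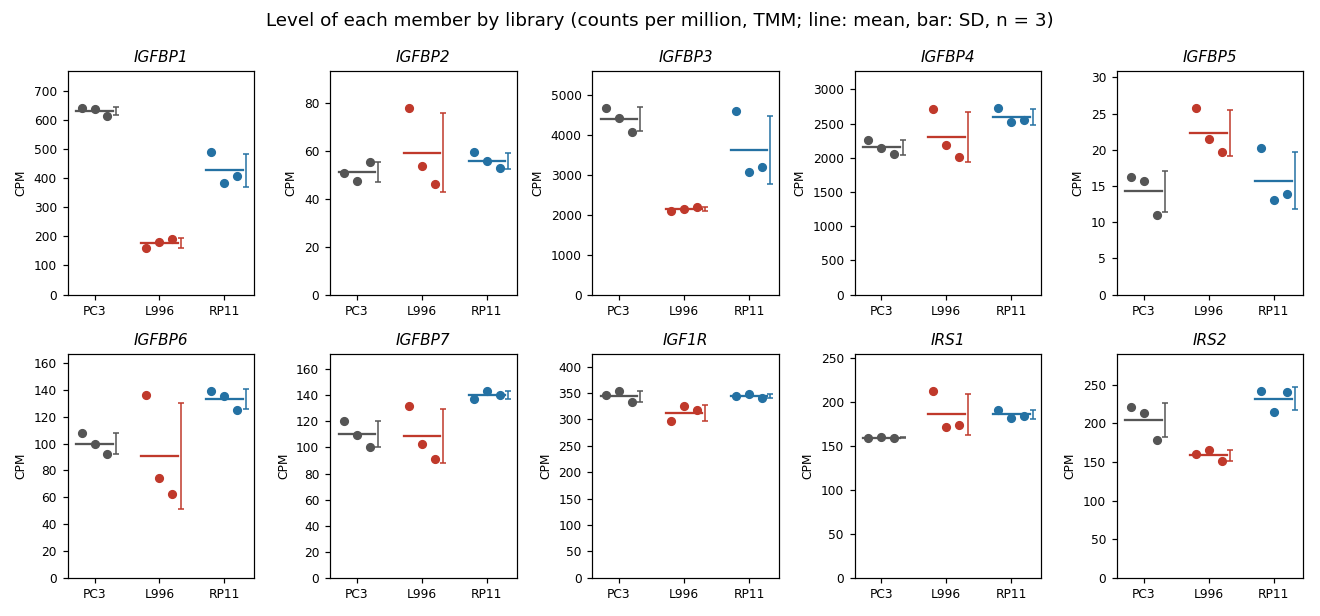
Level of each of the 10 genes in the 9 libraries, in CPM after TMM scaling on axes that start at 0; points are libraries in the order of their replicate numbers, lines are means and bars are SD (n = 3). IGFBP1 sits between 159 and 189.9 in L996, between 383 and 489.9 in RP11 and between 613 and 639.9 in PC3, with no overlap, and the first L996 library lies above the other L996 libraries in IGFBP2, IGFBP4, IGFBP5, IGFBP6, IGFBP7 and IRS1.

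Some of the genes lie side by side in the genome (GRCh38, GENCODE 29). IGFBP1 (ENSG00000146678) occupies chromosome 7 from 45888357 to 45893668 on the plus strand, and IGFBP3 (ENSG00000146674) follows from 45912245 to 45921874 on the minus strand. Their ends face each other across 18576 bases with no annotated gene between them. IGFBP2 (ENSG00000115457, chromosome 2, 216632828 to 216664436, plus strand) and IGFBP5 (ENSG00000115461, 216672105 to 216695525, minus strand) face each other in the same way across 7668 bases. IGFBP4 (ENSG00000141753) lies on chromosome 17 from 40443461 to 40457731 on the plus strand. IGFBP6 (ENSG00000167779) lies on chromosome 12 from 53097436 to 53102345 on the plus strand. IGFBP7 (ENSG00000163453) lies on chromosome 4 from 57030773 to 57110385 on the minus strand. IGF1R (ENSG00000140443) spans chromosome 15 from 98648539 to 98964530 on the plus strand. IRS1 (ENSG00000169047, chromosome 2, 226731317 to 226799759) and IRS2 (ENSG00000185950, chromosome 13, 109752698 to 109786568) are both on the minus strand. IGFBP5, IGFBP7, IGF1R and IRS2 are overlapped by genes on the opposite strand, and since the strand setting of the counting is not given in the sources used here, reads of such pairs cannot be told apart. Of the 50-base stretches in the transcripts of IGFBP7, 14.5% also occur in IGFBP7-AS1 or POLR2B, the largest shared part among the 10 genes.

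The upstream windows of the most abundant transcripts, IGFBP3 and IGFBP4, and of IRS2, which was lower in L996 together with IGFBP3, are shown. RefSeq windows (GRCh38.p14) were at hand for 8 of the 10 genes, and IGFBP1 and IGFBP7 were not among them. Each line gives the 250 bases before the RefSeq start, 5′ to 3′ on the gene's strand, at chr7:45921273-45921522 (minus strand) for IGFBP3, chr17:40443200-40443449 (plus strand) for IGFBP4 and chr13:109786584-109786833 (minus strand) for IRS2. Capitals mark TATATA in IGFBP3, TATAAA in IGFBP4 and, in IRS2, TGTTTTG, the reverse complement of CAAAACA, which is the core of the insulin response sequence that FOXO factors bind.
IGFBP3: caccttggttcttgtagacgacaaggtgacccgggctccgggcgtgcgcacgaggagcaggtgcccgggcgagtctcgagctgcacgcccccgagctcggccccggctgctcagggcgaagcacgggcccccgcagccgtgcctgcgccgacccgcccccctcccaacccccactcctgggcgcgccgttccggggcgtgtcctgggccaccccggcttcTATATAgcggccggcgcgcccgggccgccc
IGFBP4: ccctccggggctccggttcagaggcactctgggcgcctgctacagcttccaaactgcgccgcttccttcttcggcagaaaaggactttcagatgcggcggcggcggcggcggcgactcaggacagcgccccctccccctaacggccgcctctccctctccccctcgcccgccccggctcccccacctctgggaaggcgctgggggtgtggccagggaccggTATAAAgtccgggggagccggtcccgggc
IRS2: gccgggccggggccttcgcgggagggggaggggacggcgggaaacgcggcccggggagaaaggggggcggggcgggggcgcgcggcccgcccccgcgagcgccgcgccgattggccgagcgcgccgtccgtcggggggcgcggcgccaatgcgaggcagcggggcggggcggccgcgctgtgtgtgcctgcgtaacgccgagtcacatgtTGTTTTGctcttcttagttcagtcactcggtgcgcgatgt

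Searched on both strands, TATATA (its own reverse complement) was present in 3.73% of the 35116 RefSeq windows of this length, TATAAA in 10.7% and CAAAACA in 4.30%. The matches began at position -30 in IGFBP3, -29 in IGFBP4 and -40 in IRS2, counted back from the start. GC content was 76.0% in the window of IGFBP3, 71.6% in that of IGFBP4 and 76.4% in that of IRS2, against a median of 58.0% over all windows. GTAAACA, another motif that FOXO factors bind, was searched in the same way and was present in 2.98% of all windows. Among the windows at hand it occurred only in that of IGFBP6, at position -186. A match of letters is a description and not a site.

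The comparison of L996 with PC3 asked which transcripts differed when LINC00996 was overexpressed. The binding proteins IGFBP1 and IGFBP3 were lower in L996, by 3.57-fold and 2.05-fold, and the adaptor IRS2 was lower by 1.29-fold. IGFBP5, a binding protein that associates with extracellular matrix, was higher by 55.9%. Past the threshold used over all genes (adjusted p under 0.05, edgeR quasi-likelihood test, Benjamini-Hochberg) were these 4 of the 10 (1 higher, 3 lower) and 22.3% of the 16097 genes tested, 10.7% higher and 11.6% lower. Since the comparison was known when the genes were chosen, this count is no test of them and nothing is read from it, and their values below are a description.

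IGFBP1, the binding protein that insulin represses most acutely in liver, was at 639.9, 636 and 613 CPM in the PC3 libraries and at 159, 182 and 189.9 CPM in the L996 libraries. Every L996 library was below every PC3 library, and the log2 fold change was -1.83 (SE 0.094). IGFBP3, the main carrier of these growth factors in blood, was at 4679, 4430.3 and 4087 CPM in PC3 and at 2100.04, 2149.9 and 2194 CPM in L996. The L996 libraries lay close together and all below PC3, with a log2 fold change of -1.04 (SE 0.079). Over all alternative settings, leaving out single libraries included, the log2 fold change of IGFBP1 stayed between -1.91 and -1.76 and that of IGFBP3 between -1.09 and -0.99.

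IRS2 was at 221, 213 and 179 CPM in PC3 and at 159.7, 165 and 151 CPM in L996, with no overlap and a log2 fold change of -0.37 (SE 0.10). It was -0.31 without PC3 replicate 1, -0.34 without PC3 replicate 2 and -0.40 without L996 replicate 2. IGFBP5 was at 16.2, 15.6 and 11.0 CPM in PC3 and at 25.8, 21.5 and 19.7 CPM in L996, the lowest level of the 10 genes, again with no overlap and with a log2 fold change of 0.64 (SE 0.17). Without PC3 replicate 3 it was 0.48.

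The other adaptor, IRS1, was at 159 to 161 CPM in PC3 and at 171 to 212 CPM in L996, with no overlap and a log2 fold change of 0.22 (95% interval 0.00 to 0.44), or 0.11 without L996 replicate 1, the highest of its group. The receptor IGF1R was at 333 to 353 CPM in PC3 and at 296 to 325 CPM in L996, also with no overlap, and had a log2 fold change of -0.14 (-0.32 to 0.04), or -0.021 with the offset for gene length. In all, 6 of the 10 genes had groups that did not overlap, and so had 40.5% of all genes tested.

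The remaining binding proteins had overlapping groups, and L996 replicate 1 was the highest L996 library in each. IGFBP6, which prefers IGF2, was at 136, 74.4 and 62.6 CPM in L996 and at 108, 100.01 and 92.0 CPM in PC3. Its log2 fold change was -0.14 (95% interval -0.70 to 0.43), and without L996 replicate 1 it was -0.55, whereas without L996 replicate 3 it was 0.07. IGFBP4, IGFBP2 and IGFBP7 had log2 fold changes of 0.10 (-0.13 to 0.33), 0.21 (-0.15 to 0.57) and -0.02 (-0.31 to 0.27). Without L996 replicate 1, IGFBP4 turned to -0.036 and IGFBP2 to -0.041.

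**Figure D2:**
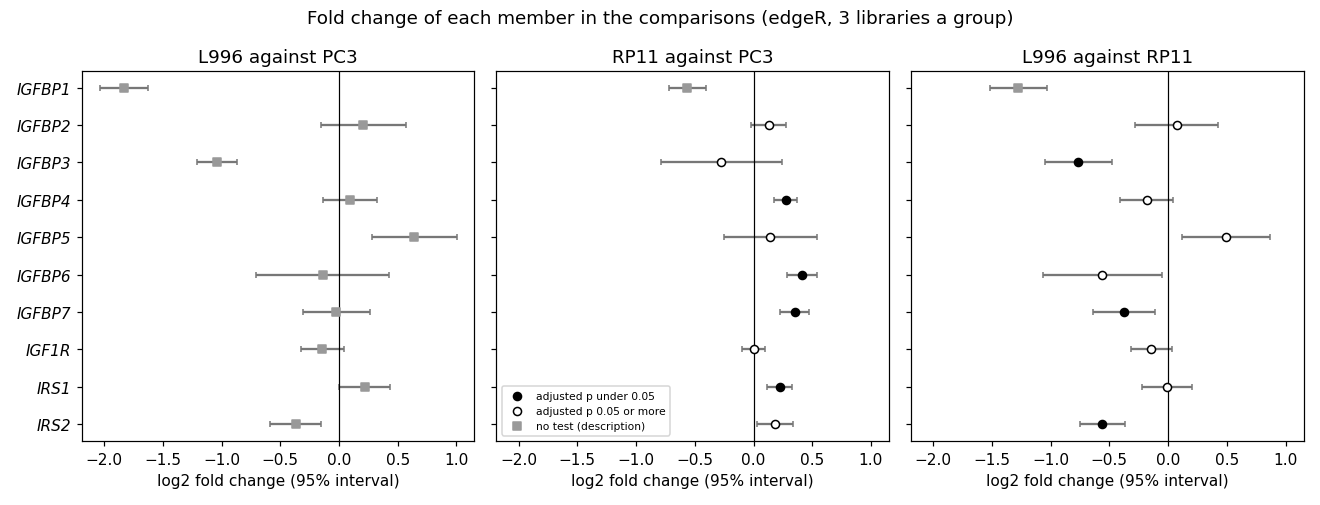
Log2 fold change of each gene in the 3 comparisons with its 95% interval (edgeR, 3 libraries a group); grey squares are values given without a test, and filled circles had an adjusted p under 0.05 over all genes tested. IGFBP1 lies left of 0 in every panel, at -1.83, -0.56 and -1.27, and IGFBP3 at -1.04, -0.28 and -0.77, with an open circle in RP11 against PC3.

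The comparison of RP11 with PC3 asked the same of AP001189.3. It shares the PC3 libraries with the comparison that was known when the genes were chosen. IGFBP1 was lower by 1.48-fold, and the binding proteins IGFBP4, IGFBP6 and IGFBP7 and the adaptor IRS1 rose by 16.6% to 33.3%. Thus 5 of the 10 genes (4 higher, 1 lower) were past the threshold, of which IGFBP1 is a description, beside 19.8% of the 16023 genes tested, 11.4% higher and 8.49% lower. The groups did not overlap for these 5 genes, as for 35.2% of all genes tested. The calls of the 4 higher genes were lost when all 9 libraries shared 1 estimate of the spread, with the fold changes as before, and 437 genes were then called in all. They held when any 1 library was left out.

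IGFBP1 was at 489.9, 383 and 405 CPM in RP11, between the L996 and the PC3 libraries. Its log2 fold change from PC3 was -0.56 (SE 0.072), given without a test, and lay between -0.67 and -0.49 over all alternative settings. IGFBP3 was at 4608, 3087 and 3200.06 CPM, so that RP11 replicate 1 lay among the PC3 libraries and the other RP11 libraries below them. Its log2 fold change of -0.28 (95% interval -0.79 to 0.24, adjusted p = 0.415, edgeR quasi-likelihood test with Benjamini-Hochberg adjustment, as for the adjusted p below) was not called. Without RP11 replicate 1 it was -0.48 and called, and without RP11 replicate 2 it was -0.17.

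IGFBP4, a binding protein that the protease PAPPA cleaves, was at 2728, 2520.3 and 2549 CPM in RP11 and at 2265, 2138 and 2051 CPM in PC3, with no overlap. It rose by 0.27 on the log2 scale (SE 0.049, adjusted p = 2.07e-04). With an offset for GC content the log2 fold change was 0.07, and the call was lost. IGFBP6 was at 139, 136 and 125 CPM in RP11, above every PC3 library, and rose by 0.41 on the log2 scale (SE 0.062, adjusted p = 2.10e-05), or by 0.19 with the GC offset, still called. IGFBP7 was at 137, 143 and 140.5 CPM in RP11 and at 120.2, 109.9 and 100.02 CPM in PC3, and rose by 0.35 (SE 0.061, adjusted p = 1.49e-04).

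IRS1 was at 191, 182 and 185 CPM in RP11 against 159, 161 and 159 CPM in PC3, and rose by 0.22 on the log2 scale (SE 0.051, adjusted p = 0.0024). IRS2 was at 241, 214 and 241 CPM in RP11, with 1 library inside the PC3 range, and its log2 fold change of 0.18 (95% interval 0.03 to 0.34, adjusted p = 0.0853) was not called. It was called with no filter on low counts (0.18), with an offset for gene length (0.21), without PC3 replicate 1 (0.24) and without RP11 replicate 2 (0.24), whereas it was 0.037 with the GC offset and 0.096 without PC3 replicate 3. IGF1R was at 339.8 to 347 CPM in RP11, inside the range of PC3, and its log2 fold change lay within -0.10 and 0.10 (95% interval). IGFBP2 and IGFBP5 had log2 fold changes of 0.13 (-0.02 to 0.28) and 0.14 (-0.25 to 0.54), not called.

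The comparison of L996 with RP11 set the overexpression of one long non-coding RNA against the other. It shares the L996 libraries with the comparison that was known when the genes were chosen, so its p-values are not independent of that comparison. IGFBP1, IGFBP3, IGFBP7 and IRS2 were lower in L996, and edgeR called 0 of the 10 genes higher, with 1 (IGFBP5) at an unadjusted p under 0.05, which DESeq2 called. These 4 of the 10, of which IGFBP1 is a description, stand beside 21.4% of the 16095 genes tested, 9.38% higher and 12.1% lower. The groups did not overlap for 5 of the 10, IGF1R included, and for 39.4% of all genes tested. IGFBP1 was 2.42-fold lower in L996, with a log2 fold change of -1.27 (SE 0.11), given without a test. IRS2 fell by 0.56 on the log2 scale (SE 0.088, adjusted p = 9.93e-04), with every L996 library below every RP11 library, and this call held in all 15 alternative settings.

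IGFBP3 fell by 0.77 on the log2 scale (SE 0.13, adjusted p = 0.0017), although without L996 replicate 1 the call was lost at -0.74. IGFBP7 fell by 0.38 (SE 0.12, adjusted p = 0.0444). Its call was lost with scaling by library size alone (-0.32) and without L996 replicate 2 (-0.34), L996 replicate 3 (-0.27), RP11 replicate 1 (-0.39), RP11 replicate 2 (-0.36) or RP11 replicate 3 (-0.37).

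IGFBP5 had a log2 fold change of 0.49 (95% interval 0.12 to 0.87, adjusted p = 0.06) and IGFBP6 of -0.56 (-1.06 to -0.05, adjusted p = 0.11), neither called. Without L996 replicate 1, IGFBP5 was called at 0.38, IGFBP6 at -0.96 and IGFBP4 at -0.31. IGFBP5 was also called without L996 replicate 3 (0.57) or RP11 replicate 1 (0.72), with DESeq2 (0.49), library size alone (0.56), no filter (0.50), all 9 libraries in 1 fit (0.50), the gene length offset (0.55), the GC offset (0.55) and the replicate block (0.51), so in 10 of 15 alternatives. IGFBP6 was also called with the gene length offset (-0.56) and the block (-0.63), and was -0.35 without L996 replicate 3. IGFBP4 had a log2 fold change of -0.18 (-0.40 to 0.04) with all libraries, which was -0.018 with the GC offset and -0.099 without L996 replicate 3. IGF1R, at -0.14 (-0.32 to 0.03), and IRS1, at -0.01 (-0.22 to 0.20), were not called either, nor was IGFBP2 at 0.07 (-0.28 to 0.43).

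Summed per length, the 7 IGFBP transcripts made up 2465 ± 132 CPM per kilobase in PC3, 2419 ± 274 in RP11 and 1764 ± 189 in L996 (SD, n = 3). The L996 libraries, from 1617 to 1977, were all below the lowest of the other groups, 2241. The makeup of the sum differed as well. IGFBP4 was 39.7% ± 0.32 of it in PC3, 49.1% ± 3.23 in RP11 and 59.2% ± 2.88 in L996, without overlap between groups. IGFBP1 was 15.5% ± 0.51, 10.6% ± 0.27 and 6.15% ± 1.15 in the same order, and IGFBP3 was 39.0% ± 0.57, 32.6% ± 3.74 and 26.9% ± 3.30. IGFBP4 and IGFBP3 were thus about equal in PC3, with a ratio of 1.02 ± 0.022, while IGFBP4 stood at 2.23 ± 0.40 times IGFBP3 in L996. The ratio of IRS1 to IRS2 per length was 0.64 ± 0.073 in PC3, 0.66 ± 0.034 in RP11 and 0.96 ± 0.12 in L996. These values follow from the differences above and are not independent of them.

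**Figure D3:**
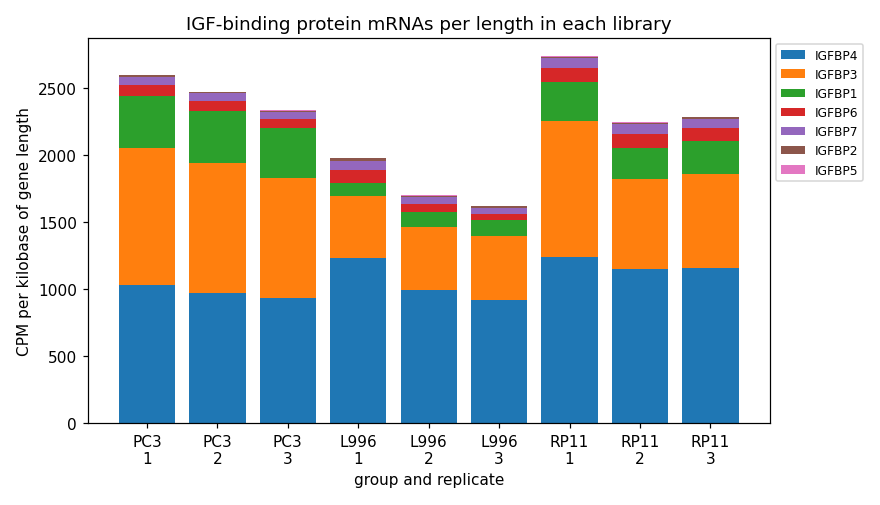
Sum of the 7 IGF-binding protein transcripts in each library as CPM per kilobase of gene length, stacked by gene. The L996 bars are the lowest, between 1617 and 1977, and hold the smallest parts for IGFBP3 and IGFBP1, while the part for IGFBP4 stays between 916 and 1240.0 in all 9 libraries.

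Within a group, 1 library was often high for many of the genes. Replicate 1 was the highest library of its group for 7 of the 10 genes in PC3, 6 in L996 and 8 in RP11, and PC3 replicate 3 was the lowest for 9. The genes also differ in base composition, from 49.5% GC in the longest transcript of IGFBP3 to 64.1% in IGFBP6, against a median of 48.4% over the tested genes. The highest GC contents after IGFBP6 were 62.5% in IGFBP4 and 58.7% in IRS2. The GC offset moved the log2 fold changes from PC3 to RP11 of IGFBP4 and IGFBP6 the most, and left IGFBP1 at -0.59 and IGFBP7 at 0.29.

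**Figure D4:**
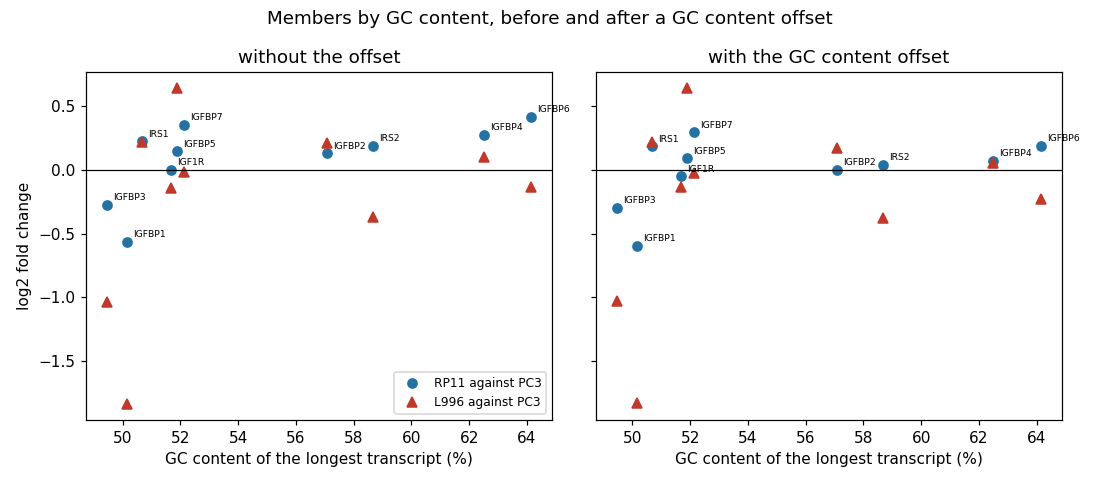
Log2 fold change of the 10 genes against the GC content of the longest transcript (percent), without and with an offset for GC content in the fit; circles are RP11 against PC3, named by gene, and triangles L996 against PC3. The circles of IGFBP4 and IGFBP6, at 62.5% and 64.1% GC, move from 0.27 and 0.41 to 0.07 and 0.19, and the triangles of IGFBP1 and IGFBP3 stay at the bottom of both panels.

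The other genes of the pathway were taken from 10 lists of 81 genes by role, which were written with earlier results of these data known. Their counts and shares are thus a description and no test of the lists. Of the 81 genes, 68 were tested. Among them 17 were called in L996 against PC3 (5 higher, 12 lower), 23 in RP11 against PC3 (13 higher, 10 lower) and 20 in L996 against RP11 (3 higher, 17 lower). That is 25.0%, 33.8% and 29.4% of the 68, beside the 22.3%, 19.8% and 21.4% of all genes given above, and the counts of each list below stand beside the same shares. Their median log2 fold changes were -0.15, -0.03 and -0.12, and those of all genes tested 0.01, -0.00 and 0.02. Of the ligands, IGF1 had at most 1 count in a library, IGF2 at most 5 and INS 0 in all 9, which allows up to 0.17 to 0.20 CPM for a count of 0 (3 counts per library), so none of the 3 was tested. The receptors INSR and IGF2R were called by neither edgeR nor DESeq2 in any comparison, and 1 of them had an unadjusted p under 0.05 in each comparison with PC3. Their log2 fold changes were -0.28 and -0.17 in L996 against PC3.

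Of the 11 receptor adaptors tested, 2 rose and 2 fell in L996 against PC3. GRB10, an adaptor that restrains the insulin and IGF1 receptors, fell by 1.06 on the log2 scale (SE 0.091), from 334 ± 10.5 to 161 ± 12.7 CPM, and was as much as 0.95 lower than in RP11. SOS2 was at -0.42 and SH2B1 at 0.48. Both calls were lost without any 1 of the PC3 libraries and without L996 replicate 2, at -0.45 to -0.41 and at 0.45 to 0.54, and without L996 replicate 1 SH2B1 was 0.31, still called. Between RP11 and PC3, 2 adaptors rose and 3 fell. SHC1, which links receptors to the RAS pathway, rose by 0.44 and SH2B1 by 0.44 (0.26 with the GC offset, still called), and GRB14, a relative of GRB10, fell by 0.50 on the log2 scale. SHC1 was also called higher in L996 against PC3, at 0.37 (SE 0.11), and SOS2 lower in RP11 against PC3, at -0.24 (SE 0.063). Neither of these calls was followed through the alternative settings.

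Neither edgeR nor DESeq2 called any of the 13 PI3K and AKT genes tested in L996 against PC3, where 3 of them by edgeR and 4 by DESeq2 had an unadjusted p under 0.05. When RP11 was compared with PC3, AKT1, AKT2 and PIK3R3 rose by 0.26, 0.21 and 0.50 on the log2 scale and 1 gene of the list fell. The calls of AKT1 and AKT2 were lost with the GC offset, at 0.06 and 0.07, that of PIK3R3 without RP11 replicate 2, at 0.41, and all 3 in the fit of all 9 libraries. PIK3R3, a regulatory subunit of PI3K, was also the only gene of this list called in L996 against RP11, where it fell by 0.84.

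In the mTOR branch, EIF4EBP1, the repressor of translation that mTOR phosphorylates, rose in both groups against PC3, by 1.13 (SE 0.19) in L996 and by 0.75 (SE 0.10) in RP11 on the log2 scale. It stood at 21.3 ± 4.14 CPM in PC3, 46.7 ± 12.1 in L996 and 35.7 ± 0.39 in RP11. RICTOR, the defining subunit of mTOR complex 2, fell by 0.81 (SE 0.12) in L996 against PC3 and by 0.58 in L996 against RP11. In RP11 against PC3 it fell by 0.24, a call that was lost with the GC offset at -0.12. RPS6KB2, a kinase of ribosomal protein S6, was at 0.54 in L996 against PC3 and at 0.37 in RP11 against PC3. The first call was lost without any 1 of the PC3 libraries or L996 replicate 2, at 0.51 to 0.59, and the value was 0.33 without L996 replicate 1, still called. The other was lost without PC3 replicate 2 (0.35), RP11 replicate 2 (0.36) or RP11 replicate 3 (0.29) and with the GC offset (0.23). Of the 13 genes tested, 3, 5 and 1 were called in the 3 comparisons.

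Of the 4 FOXO factors, FOXO1 fell in L996, from 29.2 ± 1.10 CPM in PC3 to 17.7 ± 2.72, by 0.73 on the log2 scale (SE 0.13), and was 28.9 ± 0.89 CPM in RP11. FOXO4 was called higher in RP11 against PC3, at 0.50, a call that was lost with the GC offset (0.39) and without PC3 replicate 1 (0.45) or RP11 replicate 1 (0.42). Among the 9 tested genes that FOXO factors are known to activate, 3 fell and none rose in L996 against PC3. TXNIP, an inhibitor of thioredoxin that also limits glucose uptake, fell by 1.63 (SE 0.12), from 90.9 ± 8.64 to 29.4 ± 3.32 CPM, and CITED2 by 0.50. The repressor BCL6 was at -0.40, a call that was lost without PC3 replicate 1 (-0.31), PC3 replicate 2 (-0.43) or L996 replicate 2 (-0.40). In L996 against RP11, 1 of the 9 was called higher and 4 lower, with TXNIP and CITED2 lower by 1.87 and 0.63 on the log2 scale. PDK4, which holds back pyruvate oxidation, fell by 0.38 in RP11 against PC3 and had a log2 fold change of 0.06 in L996 against PC3. It was the gene called higher in L996 against RP11, at 0.43, a call that was lost without any 1 of the RP11 libraries and without L996 replicate 2 or 3, at 0.34 to 0.45.

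Of the 6 tested proteases and protein partners of the IGFBPs, 1 rose and 3 fell in L996 against PC3. PAPPA, the protease that cleaves IGFBP4, fell by 0.55 on the log2 scale (SE 0.085), from 617 ± 31.5 to 424 ± 22.2 CPM. The stanniocalcins STC1 and STC2, which inhibit PAPPA, fell by 0.75 (SE 0.12) and 0.78 (SE 0.13). All of these were lower than in RP11 too, by 0.43, 0.73 and 1.16 on the log2 scale, while the other 2 genes called there, the proteases HTRA1 (0.38) and ADAM9 (0.37), were higher, and both are named with their values seen. STC2 rose by 0.38 in RP11 against PC3, from 99.5 ± 11.5 to 129 ± 4.03 CPM, and PAPPA and STC1 had log2 fold changes of -0.12 and -0.02. The proteases HTRA1 and ADAM12 were called lower there, at -0.20 (-0.34 with the GC offset) and -0.30. HTRA1 lost its call without PC3 replicate 3 (-0.17) or RP11 replicate 2 (-0.15), and ADAM12 without any 1 of the PC3 libraries, RP11 replicate 2 or RP11 replicate 3, at -0.31 to -0.22, and with the gene length offset (-0.26).

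Leaving out single libraries and the other alternatives left 9 of the 15 pathway genes named for L996 against PC3 called in each of 17 settings. These were CITED2, EIF4EBP1, FOXO1, GRB10, PAPPA, RICTOR, STC1, STC2 and TXNIP, and the other 6 were BCL6, CTGF, RPS6KB2, SH2B1, SOS2 and WISP1. For RP11 against PC3, 4 of 18 held in all 15 settings (CYR61, EIF4EBP1, GRB14 and SHC1), and the other 14, WISP2 among them, were lost in the fit of all 9 libraries. With any 1 library left out, 12 of the 18 held, those lost being ADAM12, FOXO4, HTRA1, IGF2BP1, PIK3R3 and RPS6KB2. For L996 against RP11, 10 of 15 held, and those lost were CTGF, IGF2BP1, IGF2BP2, PDK4 and WISP1. The endothelial markers, of which KDR, TEK and VWF had at most 3 counts, summed to 11.7 to 13.0 CPM in PC3, 5.26 to 6.62 in L996 and 7.42 to 9.58 in RP11, in the same order of groups as IGFBP1. The fibroblast markers, with COL1A2 and DCN at most at 1 count, summed to 22.9 to 25.7, 16.0 to 18.0 and 20.9 to 24.5 CPM. The epithelial sum was 6722 to 6937, 6990.2 to 9107 and 7466 to 7587 CPM, most of it KRT8 and KRT18. CDH1 and KRT19 of that list went the other way, with 317 ± 5.51 and 296 ± 3.38 CPM in PC3 and 171 ± 9.86 and 225 ± 38.8 CPM in L996, without overlap. The part of these in the results was not tested.

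**Figure D5:**
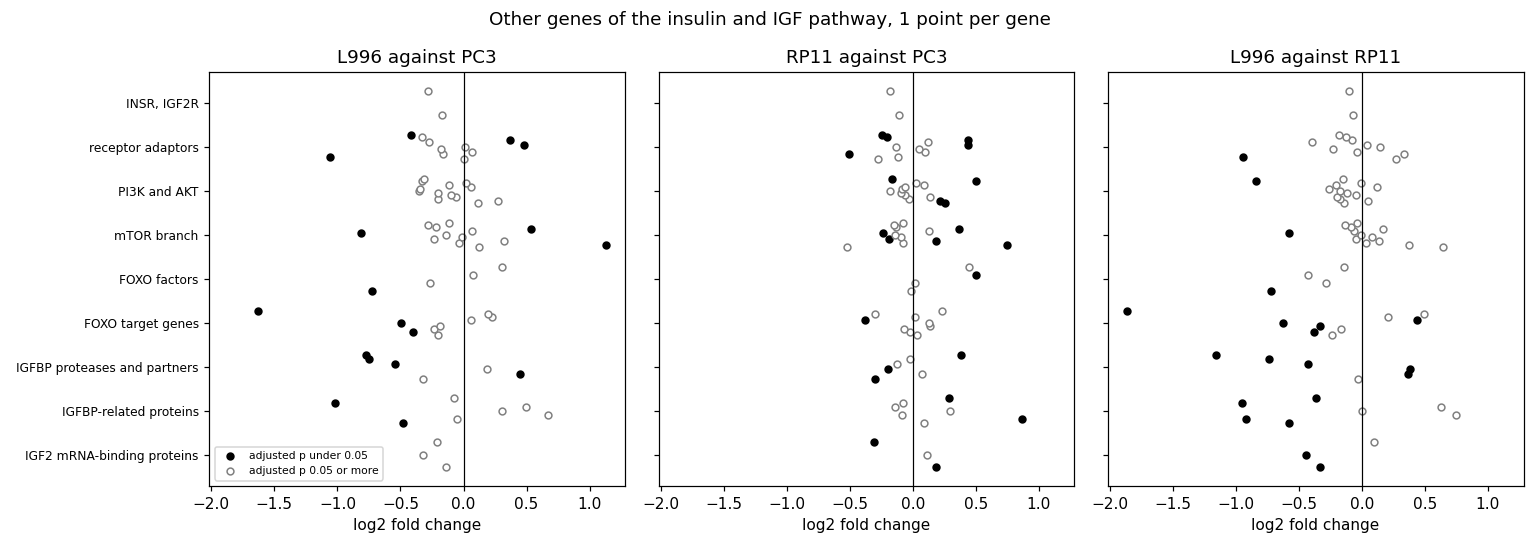
Log2 fold change of each tested pathway gene in the 3 comparisons, 1 point per gene in rows by role; filled points had an adjusted p under 0.05 over all genes tested. In L996 against PC3 the row of PI3K and AKT has no filled point among 13 genes, and the row of FOXO target genes has 3, all left of 0, the leftmost being TXNIP at -1.63.

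Likeness to IGFBP1 was measured as the root mean square difference of log2 CPM over the 9 libraries, each gene centred on its own mean, among the 9851 genes that averaged 10 CPM or more. The 5 nearest were PTAFR (0.14), BCL2A1 (0.15), AHCYL2 (0.17), PIGR (0.18) and CD55 (0.19), where IGFBP1 itself varied by 0.77. AHCYL2 was at 189.6 ± 3.21 CPM in PC3, 66.5 ± 6.60 in L996 and 126 ± 5.94 in RP11, and CD55, a surface regulator of complement, at 995 ± 7.62, 381 ± 45.9 and 803 ± 48.1. Among the other 9 genes studied here, IGFBP3, the neighbour on chromosome 7, was nearest (0.34, rank 80), followed by IRS2 (0.61, rank 1130). IGFBP5 was the least like it, at 1.07 and rank 9473.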

How the data were processed

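Poly(A) RNA, purified from total RNA of A549 cells, was sequenced in 9 libraries, 3 per group. Per the labels and the study's methods, the authors aligned 150 bp paired-end reads to GRCh38 with HISAT2 (2.0.5) and counted them with featureCounts (1.5.0-p3). The authors deposited counts per gene, which were used here, and FPKM values, which served only as a check of the gene lengths. The submitters' processing notes also name DESeq2 (1.20.0) and edgeR (3.22.5). Total counts were 15272450 to 18125447. For genes of few counts, such as WISP1 (18 to 48 in a library), counting error is part of the spread between libraries.

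Each comparison was fitted on the whole table for its 6 libraries with edgeR (4.0.16, R 4.3.3) after filterByExpr and TMM, using robust glmQLFit and glmQLFTest, with Benjamini-Hochberg adjustment over all genes tested and a threshold of 0.05. Fold changes used the default prior count of the fit. A prior count of 2 entered only the log2 CPM used for offsets, likeness to IGFBP1 and correlations of same-numbered libraries. The steps were tested on simulated data. No other per-sample columns were used. The 10 genes and the pathway lists were chosen with earlier results of these data known. Named genes were the 10 genes, up to 3 called genes with the smallest adjusted p per list and comparison, and the 5 genes most like IGFBP1; further genes are named for context and as markers. Alternatives were DESeq2 (1.42.0), other scalings and filters, 1 fit of all 9 libraries, gene length and GC offsets, a replicate block and leaving out each library. The GC offset was chosen after seeing the data. Same-numbered libraries of L996 and PC3 had deviations that correlated at r of 0.37, 0.12 and 0.21 across 9861 genes, which are not independent replicates. Libraries of different numbers were not compared, and whether the numbers pair the samples is not stated. The replicate block alone put the same 4 of the 10 genes past the threshold in L996 against PC3, and 24 pathway genes in place of 17.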

Additional observations from a re-analysis of the deposited data

How the results depend on the processing

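Of the 470 alternative values of the 10 genes, 407 kept their direction and their side of the threshold, 24 gained a call, 16 lost one and 23 turned direction; the cause was not tested. With a replicate block, 4 of the 10 genes were called in L996 against PC3, 5 in RP11 against PC3 and 6 in L996 against RP11, and 4500, 3466 and 3772 genes in all. In the last, IGFBP5 and IGFBP6 gained a call under the block. Pathway genes called under it were 24, 25 and 20. In L996 against PC3, the block with the gene length offset gave 5 of the 10 genes (IRS1 added, 0.30) and 19 pathway genes, and with the GC offset 6 of the 10 (IRS1 at 0.21 and IGFBP6 at -0.25 added). The GC offset alone added IRS1 (0.22). Without PC3 replicate 1, PC3 replicate 2 or L996 replicate 2, IRS2 was -0.31, -0.34 and -0.40 in L996 against PC3. IGFBP5 was 0.48 without PC3 replicate 3, and IGFBP6 was -0.55 without L996 replicate 1. L996 against PC3 was known when the genes were chosen, so its calls of the 10 genes are a description and no test. Same-numbered libraries correlated at 0.19, 0.059 and 0.13 in RP11 against PC3 and at 0.23, 0.050 and 0.15 in L996 against RP11, where a pairing is not stated either. Leaving out 1 library, the genes called were 3 to 5, 5 to 6 and 3 to 6 of the 10 in the order above.

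The GC offset gave 6015 calls over all genes in L996 against PC3 (5995 with the replicate block) and 5976 in L996 against RP11, and 33 (32) and 33 calls in the pathway lists. The fit of all 9 libraries gave 1 of the 10 genes, 437 of all genes and 4 of the pathway genes in RP11 against PC3. Without single libraries, all genes called were 1925 (without PC3 replicate 2) to 5481 (without L996 replicate 1) in L996 against PC3, 1914 (without RP11 replicate 2) to 3598 in RP11 against PC3 and 1840.0 (without RP11 replicate 1) to 6828 (without L996 replicate 1) in L996 against RP11. Pathway genes called were 9 (without PC3 replicate 1) to 27 (without L996 replicate 1), 16 (without PC3 replicate 2 or RP11 replicate 2) to 24 (without PC3 replicate 1) and 10 (without L996 replicate 2 or RP11 replicate 2) to 36 (without L996 replicate 1).

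Values that turned direction are given with their range when single libraries were left out. In L996 against PC3, IGFBP7 was 0.011 with library size alone and ran from -0.18 (without L996 replicate 1) to 0.088 (without L996 replicate 3), and IGFBP6 from -0.55 to 0.072, IGFBP2 from -0.041 to 0.36 and IGFBP4 from -0.036 to 0.18 without the same libraries. In RP11 against PC3, IGF1R was 0.00014 with all 9 libraries, 0.069 with the gene length offset and 0.00041 with the replicate block, and ran from -0.025 (without PC3 replicate 3) to 0.019 (without PC3 replicate 2). IGFBP2 was -0.0011 with the GC offset and ran from 0.075 to 0.19, and IGFBP5 ran from -0.081 (without RP11 replicate 1) to 0.26 (without RP11 replicate 2). In L996 against RP11, IGFBP2 ran from -0.17 (without L996 replicate 1) to 0.22 (without L996 replicate 3), and IRS1 was 0.054 with library size alone, 0.050 with the gene length offset and 0.035 with the GC offset, and ran from -0.11 (without L996 replicate 1) to 0.050 (without L996 replicate 2). The depth limits IGF1, IGF2 and INS, which were too low to test.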

Other observations

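Proteins that share the IGF-binding domain with the IGFBPs but are not of the family were tested for 7 of 9 listed genes. In RP11 against PC3, 2 of the 7 rose and none fell. CYR61 (CCN1), a matricellular protein, rose by 0.87 on the log2 scale (SE 0.10), from 16.0 ± 0.86 to 29.2 ± 1.77 CPM (SD, n = 3), and this call held in all 15 alternative settings. WISP2 (CCN5) was at 0.29, a call that was lost in the fit of all 9 libraries at the same value. In L996 against PC3, 2 of the 7 fell, WISP1 (CCN4), at 2.66 ± 0.42 CPM in PC3 and 1.31 ± 0.32 in L996, and CTGF (CCN2), at 10.7 ± 0.62 and 7.69 ± 0.84. Their log2 fold changes were -1.02 and -0.48. The call of WISP1 was lost without PC3 replicate 1 (-0.98), PC3 replicate 2 (-0.93) or L996 replicate 2 (-0.94). The call of CTGF was lost with no filter on low counts (-0.47) and without PC3 replicate 1 (-0.52), PC3 replicate 2 (-0.43), PC3 replicate 3 (-0.49) or L996 replicate 3 (-0.43). In L996 against RP11, 4 of the 7 fell, and CYR61 was lower by 0.92 on the log2 scale, also in all 15 settings.

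The IGF2 mRNA-binding proteins IGF2BP1, IGF2BP2 and IGF2BP3 bind transcripts of IGF2 and many other genes, and IGF2 itself was at most at 5 counts. Neither edgeR nor DESeq2 called any of the 3 in L996 against PC3, where 1 had an unadjusted p under 0.05. In RP11 against PC3, IGF2BP3 fell from 53.4 ± 2.17 to 43.0 ± 1.18 CPM, by 0.31 on the log2 scale (SE 0.069), and IGF2BP1 rose by 0.19. The fit of all 9 libraries left neither called, and the call of IGF2BP1 was also lost without PC3 replicate 2 (0.20), PC3 replicate 3 (0.12), RP11 replicate 1 (0.17) or RP11 replicate 2 (0.18).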
